A study of Mus musculus with 7 samples.

Results

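The genes described here are 37 genes of endoplasmic reticulum folding and of the unfolded protein response, chosen by symbol from 47729 gene identifiers in the count table, and all 37 matched 1 identifier each. The 7 RNA libraries were made from aorta, 4 of wild type (WT) and 3 of Mmp19 knockout (KO). *Mmp19* encodes a secreted matrix metalloproteinase, which the series title ties to protection of the thoracic aorta through vascular smooth muscle cells. Genotype was the only factor that differed between the groups in the labels. Strain, age, sex, how the allele was made and whether each library came from a separate mouse are each not given in the sources used here, so p-values measure the spread between these 7 libraries.

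Secreted and membrane proteins fold in the endoplasmic reticulum, where the Hsp70 chaperone BiP, lectin chaperones, disulfide isomerases and prolyl isomerases assist them. When unfolded proteins build up, the membrane sensors Ire1, Perk and Atf6 start the unfolded protein response. Ire1 splices the *Xbp1* transcript and Atf6 is cleaved into a transcription factor, and both act on genes of chaperones and of the degradation of misfolded proteins. Perk slows translation and favours production of Atf4, which acts on genes of amino acid supply, of feedback and of cell death. Smooth muscle cells and fibroblasts of the aortic wall make collagens and elastic fibre proteins and so carry a steady load of secretory folding.

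The members were ordered by role into the Hsp70 and Hsp90 chaperone system (9 genes), lectin, disulfide and proline folding (8), translocation and retrieval (3), degradation (7), the sensors with *Xbp1* (4) and the Perk/Atf4 arm (6). Library totals of estimated counts ran from 68151472 to 76926790. CPM are counts scaled to a common library size, and the count test was edgeR's quasi-likelihood test with Benjamini-Hochberg adjustment over all 19188 genes tested. All 37 members passed the filter on low counts. The targeted gene was counted in all libraries, at 20.7 to 34.7 CPM in WT and at 25.5, 11.95 and 15.9 CPM in KO replicates 1, 2 and 3, and did not pass the test (log2 fold change -0.56, edgeR adjusted p = 0.368). KO replicate 1 lay inside the WT range, so KO below means a library labelled Mmp19 knockout. Contractile smooth muscle markers, which define the labelled tissue, summed to 3985 CPM or more in every library.

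Promoter sequences are shown first because they hold the letters by which the chaperone side of the response and its Perk/Atf4 side are known. RefSeq promoters (GRCm38.p6, 250 bases before to 50 after the annotated start) were found for 31 of the 37 members, and *Hyou1*, *Manf*, *Ero1l*, *Kdelr2*, *Derl1* and *Atf6* had none in the table. The endoplasmic reticulum stress element (ERSE), read by Atf6 and Xbp1 with the factor NF-Y, was searched on both strands as CCAAT, any 9 bases and CCACG. It was found in 9 of the 31 member promoters and in 39 of all 32817 promoter windows (0.119%). The 9 were those of *Hspa5*, *Dnajc3*, *Hsp90b1*, *Creld2*, *Calr*, *Canx*, *Pdia6*, *Syvn1* and *Derl3*, that is 7 folding genes and 2 degradation genes. The exact letters were in 0 of the 6 promoters of the Perk/Atf4 arm and in 0 of the 3 of the sensor group. The 5 stretches below carry the element in genes whose values are described later. Letters in capitals are the element, and it reads in reverse complement in *Creld2*, *Calr* and the downstream copy in *Hsp90b1*.
*Hspa5*, chr2:34771840-34772089, plus strand: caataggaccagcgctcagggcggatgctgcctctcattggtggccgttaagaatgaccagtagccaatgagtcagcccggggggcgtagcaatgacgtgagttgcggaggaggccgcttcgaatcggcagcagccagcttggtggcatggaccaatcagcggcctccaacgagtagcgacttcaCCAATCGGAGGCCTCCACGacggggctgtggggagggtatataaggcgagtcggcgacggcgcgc
*Hsp90b1*, chr10:86705508-86705681, minus strand: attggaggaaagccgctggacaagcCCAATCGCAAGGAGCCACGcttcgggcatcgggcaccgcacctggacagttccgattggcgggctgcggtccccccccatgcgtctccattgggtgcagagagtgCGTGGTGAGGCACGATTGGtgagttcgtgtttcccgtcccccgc
*Pdia6*, chr12:17266466-17266534, plus strand: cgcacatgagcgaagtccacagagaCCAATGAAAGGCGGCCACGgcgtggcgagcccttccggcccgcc
*Creld2*, chr15:88819495-88819563, plus strand: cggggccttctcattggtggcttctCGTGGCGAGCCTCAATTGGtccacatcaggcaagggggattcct
*Calr*, chr8:84847050-84847118, minus strand: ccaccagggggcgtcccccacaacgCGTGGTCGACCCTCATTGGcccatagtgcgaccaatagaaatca

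The related element ERSE-II was searched as ATTGG, any 1 base and CCACG, and was found in 2 member promoters, those of *Dnajb11* and *Herpud1*, against 12 of the 32817 windows (0.0366%). The site TGACGTGG, bound by Xbp1 and Atf6, was found in 1 member promoter, that of *Kdelr3*, against 0.676% of all windows. The core of the C/EBP-Atf response element read by Atf4 was searched as TGATGNAA and was found in 3 of the 6 promoters of the Perk/Atf4 arm (*Trib3*, *Chac1* and *Asns*) and in that of *Herpud1*, against 3.97% of all windows. No pair of these matches overlapped within a member promoter. Capitals mark ERSE-II in *Herpud1*, ERSE in *Derl3* and the Atf4 core in *Chac1*, in reverse complement in the last pair.
*Herpud1*, chr8:94386352-94386412, plus strand: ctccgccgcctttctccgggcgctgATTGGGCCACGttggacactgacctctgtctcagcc
*Derl3*, chr10:75893217-75893285, plus strand: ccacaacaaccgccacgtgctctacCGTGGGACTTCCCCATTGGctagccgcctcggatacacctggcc
*Chac1*, chr2:119351024-119351081, plus strand: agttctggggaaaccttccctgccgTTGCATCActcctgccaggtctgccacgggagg

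Transcripts of chaperones and co-chaperones of the lumen lay higher in the KO libraries, without passing the test over all genes, and those of the Perk/Atf4 arm were mixed. Of the 37 members 32 had a positive log2 fold change and 5 a negative one, with a median of 0.38 against -0.03 over all genes tested. By edgeR 0 of the 37 members were called, where 3 of all 19188 genes were (0.0156%, all higher in KO). At an unadjusted p under 0.05 there were 15 members higher (9.92% of all genes) and 1 lower (7.27% of all genes). DESeq2 called 9 members higher (6.15% of the genes it tested) and 0 lower (3.53%; 9.68% in either direction), and limma-voom called 0 (0.0365% of all genes). All KO libraries lay above all WT libraries in CPM for 12 members (8.17% of all genes), and below them for 1 (8.56% of all genes). Without KO replicate 2 edgeR called 2 members higher (*Sdf2l1* and *Sec61b*), in a fit that called 667 of all 19961 genes higher (3.34%), so the members' share was near that of all genes. Without KO replicate 3 all KO lay above all WT libraries for 24 members, where 11.7% of all genes did so in the same 6 libraries. In RNA of whole tissue, more cells of a type and more RNA per cell cannot be told apart.

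**Figure D1:**
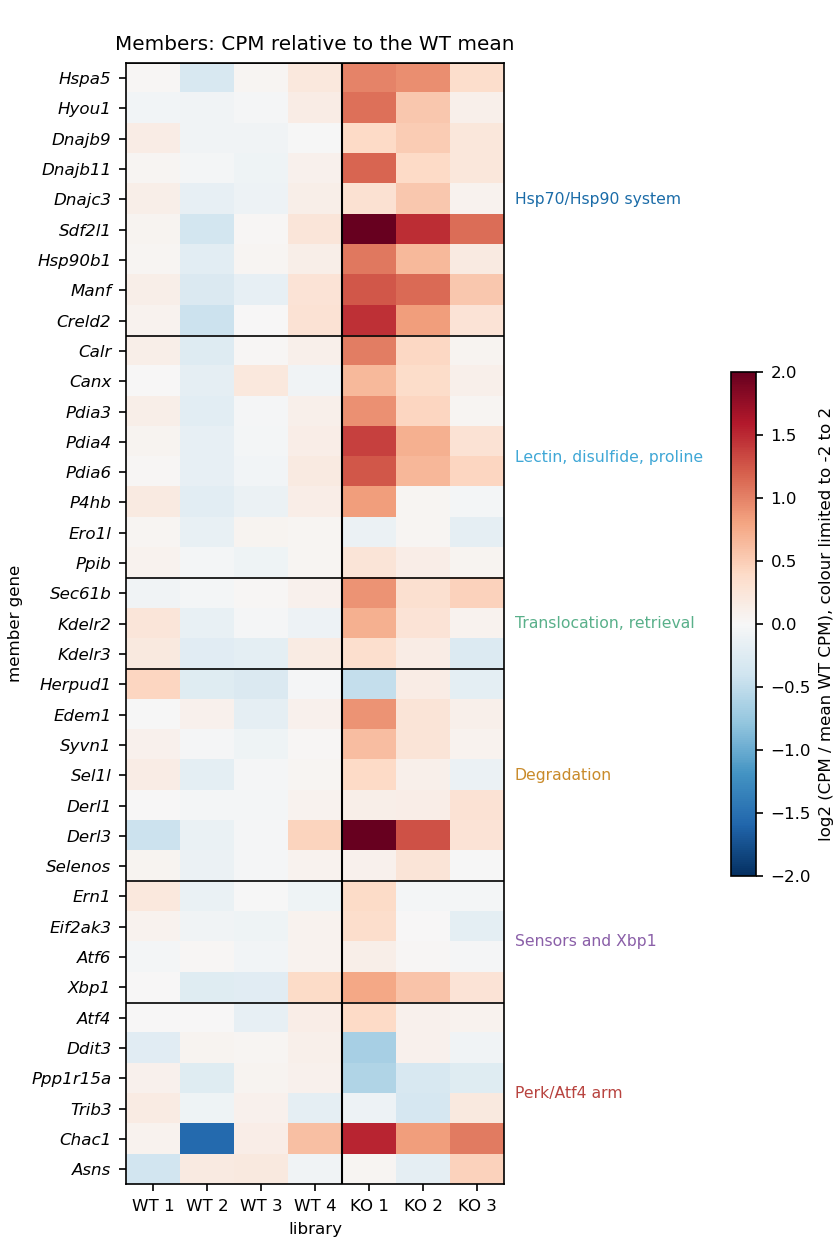
Colour gives the log2 ratio of each member's CPM to its WT mean, with members in rows by role group and the 4 WT and 3 KO libraries in columns. Most folding rows at the top are red in KO replicate 1, some only faintly, and paler in KO replicate 3. *Ero1l* is below its WT mean in both, and the Perk/Atf4 rows at the bottom hold both colours.

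The median log2 fold change descended from the chaperones to the Perk/Atf4 arm. It was 0.67 over the 9 genes of the Hsp70 and Hsp90 system, 0.44 over the 8 of lectin, disulfide and proline folding, 0.38 over the 3 of translocation and retrieval, 0.18 over the 7 of degradation, 0.10 over the sensors with *Xbp1* and 0.03 over the Perk/Atf4 arm. Without KO replicate 1 the medians were 0.43 for the Hsp70 and Hsp90 system, 0.23 for lectin, disulfide and proline folding, 0.17 for translocation and retrieval, 0.16 for degradation, -0.02 for the sensors with *Xbp1*, 0.04 for the Perk/Atf4 arm and 0.20 for all members. These medians are descriptions, and the difference between role groups was not tested.

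**Figure D2:**
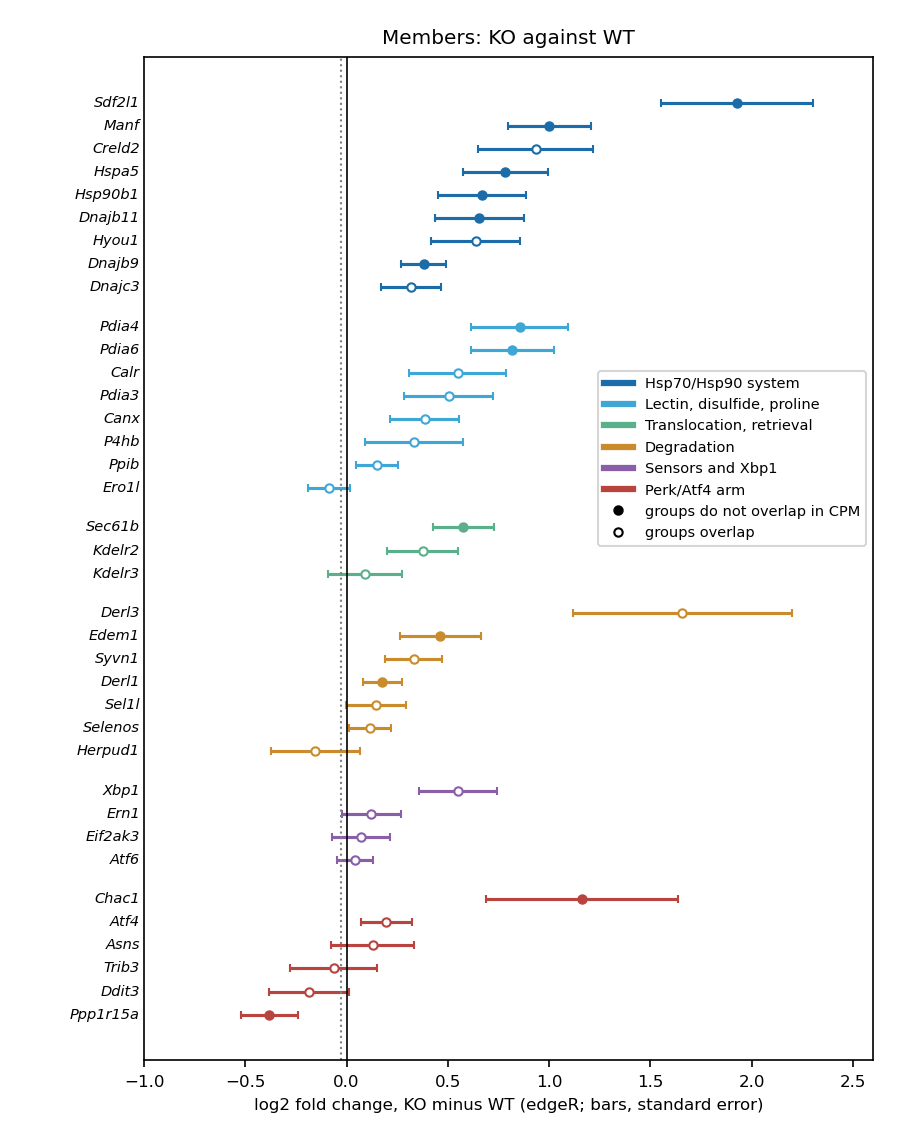
The x axis gives each member's log2 fold change of KO against WT with its standard error, members are stacked by role group, and the dotted line is the median of all genes tested. Filled points are the 13 members whose groups do not overlap in CPM, 12 to the right of 0 and *Ppp1r15a* to the left.

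*Hspa5* encodes BiP, the Hsp70 chaperone of the lumen, which also holds the sensors inactive (chromosome 2, 34771970 to 34777547, GRCm38, as for all positions of genes below). It read 567, 449, 576 and 646 CPM in WT replicates 1 to 4 and 1113, 1066 and 714 CPM in KO replicates 1 to 3. Every KO library was above every WT library, with KO replicates 1 and 2 at 1.99 and 1.90 times the WT mean and KO replicate 3 at 1.28 times. The log2 fold change, 0.78 with an SE of 0.21 (edgeR adjusted p = 0.179), did not pass, and the exact 2-sided permutation p was 0.0286, the lowest value possible with 4 and 3 libraries. DESeq2 gave an adjusted p of 0.00825.

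*Hsp90b1* encodes Grp94, the Hsp90 chaperone of the lumen (chromosome 10, 86690209 to 86705509). Its levels were 520.2, 439, 519 and 551 CPM in WT and 1050.2, 793 and 576 CPM in KO. The groups did not overlap, but KO replicate 3 was only slightly above the highest WT library. The log2 fold change, 0.67 with an SE of 0.22 (edgeR adjusted p = 0.205), did not pass, and DESeq2 gave 0.0432. Of its annotated exon bases 10.3% also belong to the antisense gene *1810014B01Rik*, and the strand setting of the counting is unknown.

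The largest relative difference of all members was in *Sdf2l1*, whose product works with BiP and its Hsp40 partners to keep unfolded proteins soluble (chromosome 16, 17130138 to 17132383). It read 6.86, 5.15, 6.71 and 7.81 CPM in WT and 42.98, 18.5 and 14.3 CPM in KO. Each KO library exceeded 2 times the WT mean, with 6.48 times in KO replicate 1, 2.79 times in KO replicate 2 and 2.16 times in KO replicate 3. Its log2 fold change, 1.93 with an SE of 0.38 (edgeR adjusted p = 0.165), did not pass, and the exact permutation p was 0.0286. Without KO replicate 2, where the genes called over all genes went from 3 to 1029, its edgeR adjusted p was 0.0421, and DESeq2 on all libraries gave 0.000158.

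*Manf*, a small secreted protein that binds BiP and is released under stress of the endoplasmic reticulum, had means of 109 ± 26.4 (KO) and 54.4 ± 9.53 CPM (WT) (SD, n = 3 and 4; chromosome 9, 106838312 to 106891979). WT libraries read 58.8, 44.6, 48.6 and 65.5 CPM, and KO libraries 128, 119 and 78.9 CPM. The groups did not overlap, and the mean in KO was 2.002 times that in WT. The log2 fold change, 1.00 with an SE of 0.20 (edgeR adjusted p = 0.165), did not pass (DESeq2 adjusted p = 0.00116). Exons of *Dcaf1*, *Rbm15b* and *4930524O07Rik* share between 0.397% and 4.71% of the exon bases of the *Manf* gene model.

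**Figure D3:**
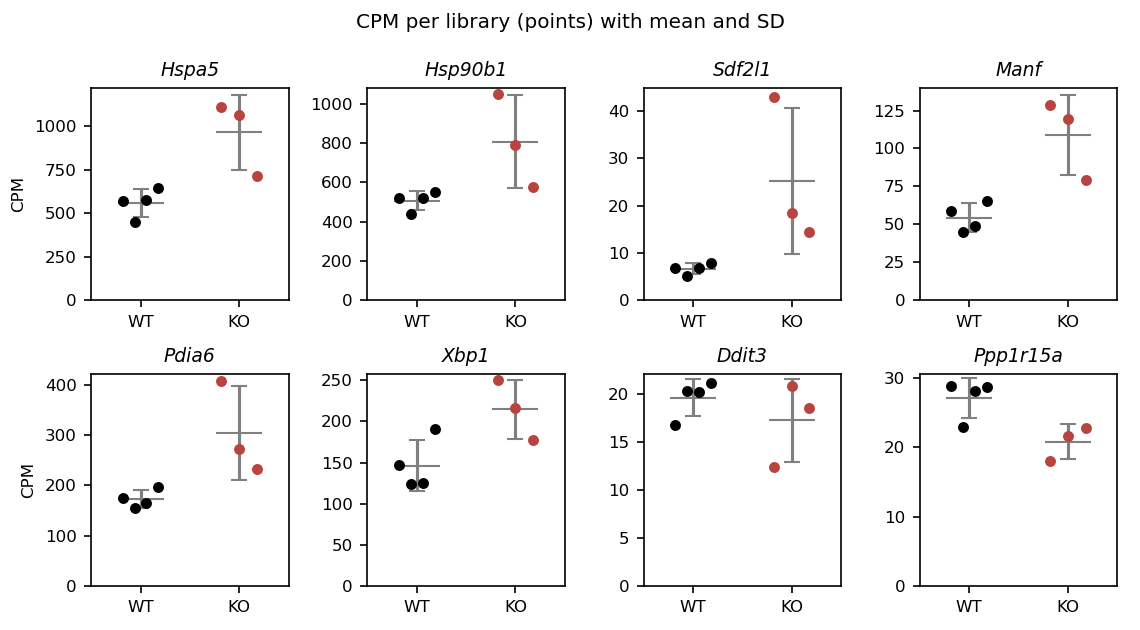
Points are CPM in each library, with WT in black, KO in red, bars at the mean and 1 SD, and axes from 0, for 8 members. *Hspa5*, *Hsp90b1*, *Sdf2l1*, *Manf* and *Pdia6* show KO points above all WT points, *Xbp1* and *Ddit3* overlap, and *Ppp1r15a* lies lower in KO.

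Among the Hsp40 co-chaperones of BiP, *Dnajb11* (ERdj3) and *Dnajb9* (ERdj4) were separated between the groups and *Dnajc3* (p58IPK) was not. *Dnajb11* read 54.9, 51.6, 50.1 and 56.6 CPM in WT and 120.02, 69.98 and 62.03 CPM in KO, with KO replicate 1 far above the other 2 KO libraries (log2 fold change 0.66, SE 0.22, edgeR adjusted p = 0.217). *Dnajb9* read 38.1, 32.96, 32.8 and 34.3 CPM in WT and 45.3, 49.1 and 40.4 CPM in KO, with KO replicate 2 highest (log2 fold change 0.38, SE 0.11, edgeR adjusted p = 0.187, DESeq2 adjusted p = 0.0300). *Dnajc3* covered 179 to 216 CPM in WT and 209 to 289.8 CPM in KO, and the ranges overlapped (log2 fold change 0.32, SE 0.15, edgeR adjusted p = 0.321). *Hyou1* (Grp170), the nucleotide exchange factor of BiP, was at 102 to 118 CPM in WT and 115 to 229.8 CPM in KO, and KO replicate 3 fell within the WT range (log2 fold change 0.64). *Creld2*, a secreted stress-responsive protein with disulfide isomerase activity, spanned 16.1 to 26.4 CPM in WT and 26.4 to 59.5 CPM in KO, where replicate 3 lay just under WT replicate 4 (log2 fold change 0.93, edgeR adjusted p = 0.194, DESeq2 adjusted p = 0.0368). All 9 genes of the Hsp70 and Hsp90 system had a positive log2 fold change. KO replicates 1 and 2 lay above all WT libraries for all 9 of them, and KO replicate 3 for 6. The share of all genes that did so was not counted for single KO libraries, so these counts are descriptions only.

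The disulfide isomerases were separated between the groups in part. *Pdia6* (chromosome 12, 17266545 to 17284770), an isomerase that also limits Ire1 signalling, read 175, 154, 165 and 196 CPM in WT and 409, 272 and 232 CPM in KO (log2 fold change 0.82, SE 0.20, edgeR adjusted p = 0.174, DESeq2 adjusted p = 0.0102). *Pdia4* (ERp72; chromosome 6, 47796141 to 47813430) read 118, 101, 111 and 126 CPM in WT and 294, 187 and 139 CPM in KO (log2 fold change 0.86, SE 0.24, edgeR adjusted p = 0.184, DESeq2 adjusted p = 0.0250). Neither gene overlapped between the groups. *Pdia3* (ERp57), which works with the lectin chaperones on glycoproteins, was at 393 to 495 CPM in WT and 466 to 859.5 CPM in KO, with an overlap in KO replicate 3. *P4hb*, the canonical disulfide isomerase and also a subunit of collagen prolyl 4-hydroxylase, was at 427 to 559 CPM in WT and 483 to 879.96 CPM in KO. Its log2 fold change of 0.33 (SE 0.24) rested on KO replicate 1 and was -0.0031 without it. *Ero1l*, the oxidase that recharges the isomerases, did not differ beyond its spread, with means of 45.8 ± 3.58 (KO) and 48.6 ± 3.21 CPM (WT) (SD, n = 3 and 4; edgeR adjusted p = 0.709).

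The lectin chaperones calreticulin (*Calr*) and calnexin (*Canx*) hold newly glycosylated proteins until they are folded. *Calr* was at 412 to 534 CPM in WT and at 997, 654 and 509.8 CPM in KO, with KO replicate 3 within the range of WT (log2 fold change 0.55, SE 0.24, edgeR adjusted p = 0.296). *Canx* was at 296 to 388 CPM in WT and 524, 429 and 357 CPM in KO, again with KO replicate 3 inside that range (log2 fold change 0.39, SE 0.17, edgeR adjusted p = 0.302). *Ppib*, the prolyl isomerase cyclophilin B that acts on procollagen, had a log2 fold change of 0.15 (edgeR adjusted p = 0.494), and 25% of its exon bases are shared with the antisense gene *Snx22*. Of the 8 genes of lectin, disulfide and proline folding, KO replicate 1 lay above all WT libraries for 7, KO replicate 2 for 6 and KO replicate 3 for 2. Here too the share of all genes was not counted for single libraries.

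Per kilobase of annotated exon, a scale on which levels of different genes can be compared roughly, the same 5 genes stood at the top in both groups. The length joins the exons of all annotated transcripts of a gene, so it can exceed that of the transcripts present, by an amount that differs between genes. In WT the mean level was highest for *P4hb* (173 CPM per kb), *Calr* (171 CPM per kb), *Pdia3* (145 CPM per kb), *Hspa5* (132 CPM per kb) and *Hsp90b1* (126 CPM per kb). In KO the levels were 250.1 CPM per kb for *Calr*, 228 for *Hspa5*, 218 for *P4hb*, 206 for *Pdia3* and 200.05 for *Hsp90b1*. The SD between KO libraries was 250.1 CPM for *Calr*, around a mean of 720.4 CPM, and 218 CPM for *Hspa5*, around 964 CPM. Differences between neighbours in this order of genes were not tested. *Sdf2l1* was a minor transcript by this scale, at 5.99 CPM per kb in WT and 22.8 in KO, and *Derl3* was the lowest member in both groups, at 0.286 and 0.903 CPM per kb.

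Entry into the endoplasmic reticulum and retrieval to it were represented by 3 members. *Sec61b*, a subunit of the translocation channel (chromosome 4, 47474658 to 47483242), read 28.1, 28.9, 29.9 and 31.4 CPM in WT and 54.998, 36.9 and 40.5 CPM in KO. The WT libraries were tight and all KO libraries lay above them (log2 fold change 0.58, SE 0.15, edgeR adjusted p = 0.176, exact permutation p = 0.0286, DESeq2 adjusted p = 0.0260). In the same fit of 1029 called genes, without KO replicate 2, its edgeR adjusted p was 0.0495. *Kdelr2*, a receptor that returns escaped chaperones from the Golgi, read 109, 83.4, 90.7 and 85.5 CPM in WT and 150.4, 111 and 97.2 CPM in KO (log2 fold change 0.38, SE 0.17, edgeR adjusted p = 0.321). Its related receptor *Kdelr3* had means of 61.4 ± 12.6 (KO) and 57.7 ± 9.21 CPM (WT) (SD, n = 3 and 4; log2 fold change 0.09), within the spread.

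Genes of endoplasmic reticulum-associated degradation, which extracts misfolded proteins for the proteasome, were mixed. *Derl3*, a membrane factor of this route that is abundant in professional secretory cells, read 0.423, 0.521, 0.559 and 0.774 CPM in WT and 3.34, 1.37 and 0.686 CPM in KO (chromosome 10, 75893413 to 75895941). KO replicate 3 fell inside the WT range, and the log2 fold change, 1.66 with an SE of 0.54 (edgeR adjusted p = 0.208), was 0.84 without KO replicate 1. *Edem1*, a lectin-like factor that selects glycoproteins for disposal, read 105, 112, 92.1 and 111 CPM in WT and 196, 125 and 112 CPM in KO, and KO replicate 3 exceeded the highest WT library by a small margin (log2 fold change 0.46, SE 0.20, edgeR adjusted p = 0.293). *Syvn1*, the ubiquitin ligase Hrd1, read 45.1, 41.9, 40.2 and 43.6 CPM in WT and 65.4, 50.96 and 44.7 CPM in KO, with an overlap of KO replicate 3 and WT replicate 1 (log2 fold change 0.33, SE 0.14, edgeR adjusted p = 0.285).

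*Derl1*, another derlin of the retrotranslocation complex, read 126, 123, 122 and 131 CPM in WT and 135, 137 and 153 CPM in KO, and here KO replicate 3 was the highest library (log2 fold change 0.18, SE 0.10, edgeR adjusted p = 0.392). The adaptor *Sel1l* (log2 fold change 0.14) and the selenoprotein *Selenos* (0.12) overlapped between the groups, with edgeR adjusted p of 0.660 and 0.603. *Herpud1*, a stress-induced scaffold of the Hrd1 complex, was low in KO replicate 1. It was at 90.6 to 149 CPM in WT and at 78.8, 123 and 95.9 CPM in KO, where replicate 1 was below all WT libraries (log2 fold change -0.15, edgeR adjusted p = 0.761). Its promoter carried ERSE-II and an Atf4 core.

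The 3 stress sensors were at nearly equal levels in the groups. *Atf6* had means of 77.02 ± 3.99 (KO) and 74.9 ± 3.08 CPM (WT), *Eif2ak3*, which encodes Perk, 40.04 ± 7.93 and 38.1 ± 2.26 CPM, and *Ern1*, which encodes Ire1, 41.2 ± 7.27 and 37.9 ± 4.07 CPM (SD, n = 3 and 4). The log2 fold changes were 0.04 (SE 0.09), 0.07 (SE 0.14) and 0.12 (SE 0.15). *Ern1* read 43.6, 34.4, 37.7 and 35.8 CPM in WT and 49.6, 37.01 and 37.03 CPM in KO, so that only KO replicate 1 left the WT range. *Xbp1*, the transcript that Ire1 splices, read 147, 124, 125 and 190.4 CPM in WT and 249.9, 216 and 178 CPM in KO (chromosome 11, 5520659 to 5525893). WT replicate 4 lay above KO replicate 3, and the log2 fold change, 0.55 with an SE of 0.19 (edgeR adjusted p = 0.225), did not pass. Gene counts do not distinguish spliced from unspliced *Xbp1*, and they do not show the cleavage of Atf6 or the phosphorylation of Perk.

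The Perk/Atf4 arm held 3 positive and 3 negative log2 fold changes. *Atf4*, its transcription factor, was at 74.8 to 92.2 CPM in WT and 88.03 to 111 CPM in KO (log2 fold change 0.20, edgeR adjusted p = 0.464). Since Atf4 is controlled largely at translation, its transcript level is only part of its activity. *Ddit3*, which encodes the death-associated factor Chop, was at 16.8 to 21.1 CPM in WT and at 12.4, 20.8 and 18.6 CPM in KO, where replicate 1, the library with the most *Hspa5*, had the least *Ddit3* (log2 fold change -0.18, edgeR adjusted p = 0.671). *Ppp1r15a*, which encodes Gadd34, the phosphatase subunit that ends the translational block (chromosome 7, 45522916 to 45526268), read 28.8, 22.9, 28.1 and 28.7 CPM in WT and 17.96, 21.7 and 22.8 CPM in KO. It was the only member with all KO libraries below all WT libraries, although WT replicate 2 and KO replicate 3 were nearly equal and the groups overlapped with the stricter filter, with counts divided by 4, and without WT replicate 1 or KO replicate 2 (log2 fold change -0.38, SE 0.14, edgeR adjusted p = 0.238, exact permutation p = 0.0571).

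*Chac1*, a glutathione-degrading enzyme induced by Atf4, was the member of this arm that lay higher, at 4.73, 2.96 and 3.39 CPM in KO and 1.72, 0.563, 1.81 and 2.50 CPM in WT (chromosome 2, 119351229 to 119354381). The groups did not overlap, at low levels (log2 fold change 1.16, SE 0.48, edgeR adjusted p = 0.274). The pseudokinase *Trib3* (4.90 ± 0.906 CPM for KO against 5.12 ± 0.553 CPM for WT) and asparagine synthetase, *Asns* (24.5 ± 5.57 against 22.4 ± 4.04 CPM; SD, n = 3 and 4), both targets of Atf4, did not differ beyond their spread. The core motif in the promoters of *Chac1*, *Trib3* and *Asns* stood in genes with log2 fold changes of 1.16, -0.06 and 0.13. The promoters with ERSE stood in genes with log2 fold changes from 0.32 (*Dnajc3*) to 1.66 (*Derl3*), and *Sdf2l1* and *Pdia4*, which have some of the larger values, did not hold the exact letters in this window.

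The KO libraries differed among themselves and kept one order through most of the folding genes. Of the 17 folding members (Hsp70 and Hsp90 system with lectin, disulfide and proline folding) 14 were highest of all 7 libraries in KO replicate 1, and the order KO replicate 1 over 2 over 3 held for 14. Neither count was made over all genes, so they do not show whether this order is particular to folding genes. By the median over the genes of a group of log2 CPM minus the WT mean, KO replicates 1, 2 and 3 stood at 1.10, 0.65 and 0.23 for the Hsp70 and Hsp90 system, where WT libraries ran from -0.20 to 0.14. Lectin, disulfide and proline folding deviated by 0.88, 0.39 and 0.05 in KO, against -0.17 to 0.10 in WT. KO replicate 3 was above all WT libraries in the first group and inside their range in the second.

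Degradation genes deviated by 0.40, 0.26 and 0.07 in KO and by -0.09 to 0.07 in WT. For the sensors with *Xbp1* the KO values were 0.38, 0.02 and -0.02 against -0.10 to 0.07 in WT. The Perk/Atf4 arm was at -0.02, -0.03 and 0.14 in KO and -0.03 to 0.10 in WT. KO replicate 1 was near 0 in this median with members on both sides, since it lay above all WT libraries for *Atf4* and *Chac1* and below all of them for *Ddit3* and *Ppp1r15a*. WT replicate 2 was the lowest library for 19 of the 37 members and 13 of the 17 folding members, a count not made over all genes.

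**Figure D4:**
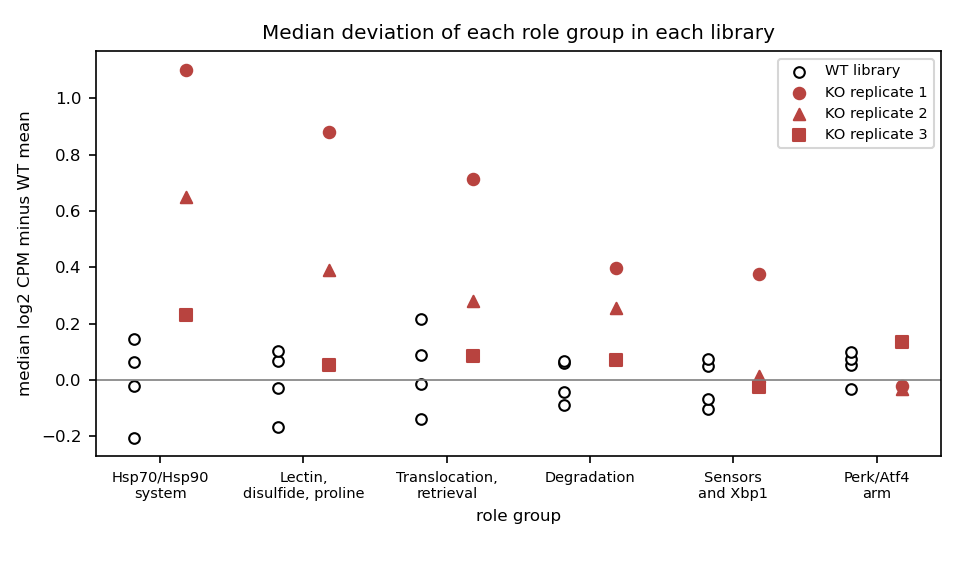
The y axis is the median over the genes of each role group of log2 CPM minus the WT mean, with 4 WT libraries as open circles and the KO replicates as red symbols. Red symbols spread from 0.23 to 1.10 in the Hsp70 and Hsp90 system and lie between -0.03 and 0.14 in the Perk/Atf4 arm.

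Marker transcripts of other cell types differed along with these values. The 17 folding members summed to 3290.3 to 4114 CPM in WT and to 7218, 5472 and 4219 CPM in KO replicates 1, 2 and 3. All 12 macrophage markers lay higher in every KO library than in every WT library (8.17% of all genes). Their sums were 319 to 552 CPM in WT and 4058, 708 and 1297 CPM in KO. All 12 contractile smooth muscle markers had a negative log2 fold change, with sums of 19886 to 22079.6 CPM in WT and 3985, 14984 and 7952 CPM in KO. Of these 12 genes 10 were without overlap, lower in KO (8.56% of all genes). KO replicate 1 was the most extreme library for the folding genes and for both of these lists, but KO replicate 3 was next for the markers and KO replicate 2 for the folding genes. The part of these cells in the result was not tested.

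Striated muscle markers, 9 of 10 with a positive log2 fold change, summed to 97.7 to 160.5 CPM in WT and 773, 952 and 198 CPM in KO. Of these 10 genes 1, *Ckm*, was without overlap, higher in KO (8.17% of all genes). The KO libraries did not share 1 pattern, with *Myh6* at 411, 500 and 0.738 CPM and *Acta1* at 8.61, 0.857 and 61.6 CPM in KO. The part of striated muscle was not tested. Fibroblast markers summed to 17214 to 29618 CPM in WT and 33741, 23479 and 21898 CPM in KO, where KO replicate 1 exceeded the WT range. Of that library's sum *Col1a1*, *Col1a2* and *Col3a1*, collagens that smooth muscle cells also make, gave 9724, 8595 and 12751 CPM. Beside the collagens, *Dcn* (751 CPM), *Gsn* (677 CPM) and *Pi16* (157 CPM) lay below all WT libraries in KO replicate 1. *Lum* (447 CPM) and *Pdgfra* (171 CPM) lay above them. Endothelial markers were at 1656 to 1784 CPM in WT and 1022, 1706 and 1699 CPM in KO, and adipocyte markers at 3363 to 6030.1 and 2541, 4324 and 6412 CPM. The 12 B and plasma cell markers, whose cells are rich in *Derl3* and *Xbp1*, summed to 69.9 to 80.4 CPM in WT and 131, 77.97 and 107 CPM in KO. Of these sums *Sdc1*, which other cells also make, gave 33.3 to 58.3 CPM in WT and 56.1 to 78.7 CPM in KO. The part of these cells in the *Derl3* and *Xbp1* values was not tested. Of the 11 tested genes of the B and plasma cell list 10 had a positive log2 fold change and 1 a negative one, with a median of 0.55. Among the defining genes of these cells *Jchain* read 1.41, 1.31 and 7.73 CPM in KO and *Igkc* 5.92, 1.83 and 12.8 CPM. Both were highest in replicate 3, which had the least *Derl3* of the 3. *Ighm*, at 34.3, 14.9 and 16.9 CPM in KO, and *Cd79b*, at 2.63, 0.914 and 1.88 CPM, were highest in replicate 1, which had the most. *Mzb1* was at 0.194 CPM or less in every library and at 0 in 3 of them, and *Tnfrsf17* was at 0.163 CPM or less.

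**Figure D5:**
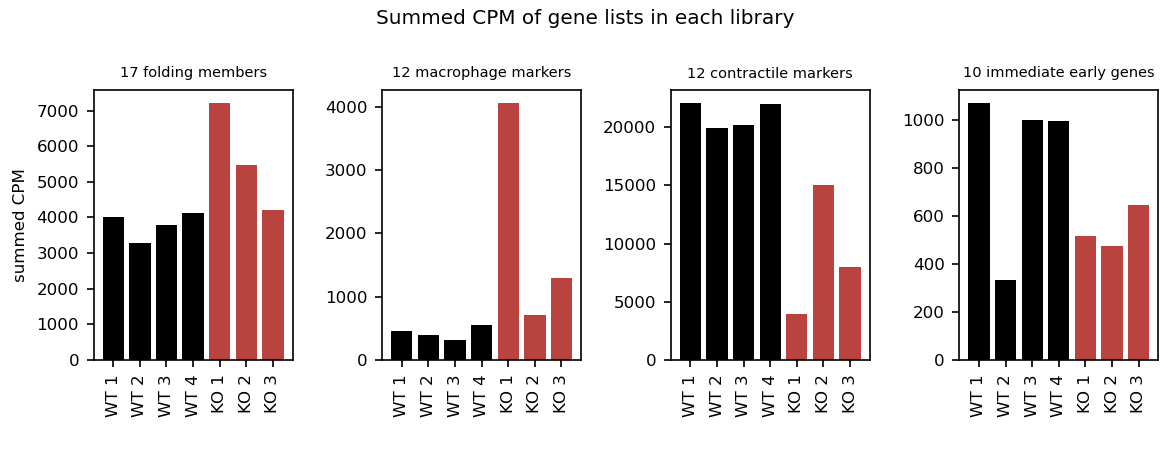
Bars are summed CPM in each library, from 0, with WT in black and KO in red, for the 17 folding members, macrophage markers, contractile markers and immediate early genes. KO replicate 1 has the tallest folding and macrophage bars and the shortest contractile bar, and WT replicate 2 has the shortest immediate early bar.

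Immediate early genes, which respond within minutes to handling of tissue, are given beside the Perk/Atf4 arm because *Ppp1r15a* and *Ddit3* also respond to acute stresses. The median log2 fold change of these 10 genes was -0.66, with 8 negative, with sums of 516, 475 and 645 CPM in KO. WT libraries 1, 3 and 4 summed to 1072, 1001 and 995 CPM, and WT replicate 2 to 334 CPM. WT replicate 2 was also the lowest WT library for *Ppp1r15a*. For *Ddit3* it was not, at 20.3 CPM, and WT replicate 1 was the lowest WT library, at 16.8 CPM. The part of handling in the *Ppp1r15a* value was not tested.

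A further list of 140 genes of the same pathways, of which 138 passed the filter, was read from the same test. edgeR called 0 of them higher and 0 lower over all genes tested, and 21 were higher and 2 lower at an unadjusted p under 0.05 (9.92% and 7.27% of all genes). Their median log2 fold change was 0.10. Translocation and glycosylation genes held the most without overlap among these lists, with 23 of 28 positive, a median of 0.18 and 8 genes without overlap, all higher in KO (8.17% of all genes). *Magt1*, a subunit of an oligosaccharyltransferase, had means of 74.97 ± 5.38 (KO) and 55.4 ± 5.20 CPM (WT), and *Tram1*, a partner of the translocation channel, 126 ± 33.7 and 83.4 ± 5.50 CPM (SD, n = 3 and 4; edgeR adjusted p = 0.174 and 0.186).

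Of 31 other folding enzymes 20 were positive, with a median log2 fold change of 0.12. *Ppic*, the prolyl isomerase cyclophilin C, had means of 131 ± 3.30 (KO) and 87.2 ± 14.4 CPM (WT), and *Hspa13*, a microsomal Hsp70 protein, 55.2 ± 3.37 and 42.7 ± 4.16 CPM (SD, n = 3 and 4; edgeR adjusted p = 0.170 and 0.192). For 22 other degradation genes the median was 0.07, and *Derl2* (49.3 ± 4.72 CPM for KO against 38.5 ± 1.96 CPM for WT) and *Ube2g2* (48.2 ± 4.99 against 39.6 ± 5.97 CPM) had the smallest p. Carriers of the COPII coat and their cargo receptors had a median of 0.07 over 15 genes, and the smallest p were those of the cargo receptor pair *Mcfd2* (115 ± 12.2 against 95.5 ± 4.74 CPM) and *Lman1* (148 ± 38.8 against 109 ± 12.2 CPM). None of these genes passed the adjustment over all genes tested.

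Other targets of Atf4 had the highest median log2 fold change of these further lists, above the 0.03 of the Perk/Atf4 arm. Of 26 tested genes 18 were positive and 8 negative, with a median log2 fold change of 0.21. At an unadjusted p under 0.05 by edgeR 3 were higher and 0 lower (9.92% and 7.27% of all genes). In each direction 1 was without overlap (8.17% of all genes higher, 8.56% lower). *Slc7a11*, the cystine transporter, had means of 11.4 ± 10.02 (KO) and 1.56 ± 1.49 CPM (WT), with 21.9, 1.96 and 10.2 CPM in the KO libraries, and its groups overlapped. *Cebpg*, a partner of Atf4 on DNA, had means of 74.9 ± 3.40 (KO) and 59.6 ± 7.52 CPM (WT) without overlap (edgeR adjusted p = 0.201 and 0.234). Among 16 tested sensors and regulators the median was 0.03. *Eif2s1*, the translation factor subunit that Perk phosphorylates, had means of 54.99 ± 9.38 (KO) and 40.1 ± 2.93 CPM (WT), and *Eif2ak2*, the kinase PKR, which interferon induces, 35.4 ± 8.58 and 24.9 ± 2.27 CPM (edgeR adjusted p = 0.194 and 0.228). ERSE was found in 0 of the 23 promoters of other folding genes that the table holds, against 7 of 14 among the folding members. The members were chosen as genes of folding and of the unfolded protein response, so this difference is not a test.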

How the data were processed

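Per the labels' protocols, Trizol was used to isolate aortic RNA and a SMARTER kit to build the mRNA libraries. The authors deposited counts per gene for 7 libraries, whole numbers not scaled between libraries, which were taken as estimated counts because of their values (below). The build was GRCm38 (mm10), per the submitters' processing notes. The aligner, counter, annotation release and strandedness are each not given in the sources used here. Of counts between 8 and 40, 34.4% were multiples of 4, so how many reads a count stands for is unknown, and totals are of deposited counts.

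Of 47729 identifiers 47224 matched a symbol in GENCODE M21 (GRCm38), from which 1-based positions and exon lengths come. KO was compared with WT in edgeR 4.0.16 (R 4.3.3) with filterByExpr, TMM scaling and the quasi-likelihood test, without covariates, at an adjusted p of 0.05. Standard errors match the quasi-likelihood statistic. CPM use the TMM factors and log2 CPM a prior count of 2. Single members were compared by an exact 2-sided permutation of mean log2 CPM over all 35 assignments of the 7 libraries. Alternatives were other scalings, filters, DESeq2 1.42.0, limma-voom (limma 3.58.1), counts divided by 4, a replicate block and leaving out each library. The procedure was tested on simulated data. No 2 libraries were duplicates (each pair had a mean chi-square of at least 20.4 per gene). Members, lists and tests were chosen with earlier results of these data known. Values in every library are given for members whose groups do not overlap and for the 2 members of each role group with the smallest p, and the 2 genes with the smallest p are named from each list of other pathway genes. Further genes were picked with their values known. Promoters come from RefSeq (GRCm38.p6).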

Additional observations from a re-analysis of the deposited data

Results flagged for a closer look

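In the 4 WT libraries, 1 value stood apart from the other 3 by more than Dixon's 95% critical ratio in 4 of the 61 groups examined (37 members and the summed lists), where chance flags about 1 in 20 groups. WT replicate 2 was low for *Ero1l* (43.8 CPM, against 50.1 to 50.3 CPM in the others). It was low again for *Ppp1r15a* (22.9 CPM, against 28.1 to 28.8 CPM), and for the summed immediate early genes (334 CPM). WT replicate 4 was high for the summed B and plasma cell markers (80.4 CPM).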

How the results depend on the processing

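Of the 37 members 28 kept the sign of their log2 fold change over the 15 alternatives. edgeR called 0 members in each edgeR setting except without KO replicate 2 (2, both higher; 0 to 2 over the left-out libraries), and DESeq2 called 9, all higher. Over all genes the count of 3, all higher, was 0 without a filter, 7 with the stricter filter, limma-voom or counts divided by 4, and 1606 with DESeq2 (1020 higher, 586 lower). Leaving out 1 library gave 0 to 1029 genes (0 to 667 higher, 0 to 362 lower), with the 1029 without KO replicate 2 and 0 without any other library. Members with all KO above all WT libraries numbered 13 to 24 without 1 library, the 24 without KO replicate 3, and those below 0 to 1. Over all genes the shares in the same fits were 10.5% to 18.1% above, the 18.1% without KO replicate 2, and 9.99% to 15.2% below. These counts without overlap and their shares were chosen after seeing the data. The member below was 0 with the stricter filter and with counts divided by 4. Medians without 1 library ran from -0.13 to 0.20 for the Perk/Atf4 arm, from 0.43 to 0.88 for the Hsp70 and Hsp90 system (0.37 with limma-voom) and from 0.20 to 0.50 for all members, each of the last pair lowest without KO replicate 1 and highest without KO replicate 3. The median of the sensors with *Xbp1* was -0.02 without KO replicate 1.

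Signs turned at adjusted p of 0.643 or more, and the cause was not tested. With limma-voom the values were -0.14 for *Kdelr3*, -0.0097 for *Sel1l*, -0.11 for *Eif2ak3*, -0.021 for *Atf6* and 0.10 for *Trib3*. Leaving out 1 library in turn gave -0.0031 to 0.52 for *P4hb*, -0.050 to 0.26 for *Kdelr3*, -0.0038 to 0.27 for *Sel1l*, -0.039 to 0.25 for *Ern1*, -0.099 to 0.20 for *Eif2ak3*, -0.0075 to 0.10 for *Atf6*, -0.29 to 0.044 for *Herpud1*, -0.20 to 0.099 for *Trib3* and -0.055 to 0.30 for *Asns*, with the sign turned without KO replicate 1 for the first 6, without WT replicate 1 for *Herpud1* and *Trib3*, without KO replicate 2 for *Trib3* and without KO replicate 3 for *Asns*. Same-numbered libraries correlated at 0.05, 0.07 and 0.34 in their deviations, and differently numbered ones at -0.23 to 0.15. These few values cannot decide whether the numbers pair the libraries. The replicate block gave 0 genes and 0 members called, with a median of 0.35 over the members and -0.01 over the Perk/Atf4 arm. With 3 KO libraries that differ widely, these medians rest on few samples.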

Other observations

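Heat shock chaperones outside the endoplasmic reticulum were mixed. Of the 10 genes of that list, which are cytosolic except the mitochondrial chaperones *Hspd1* and *Hspe1*, 6 were positive and 4 negative, at a median log2 fold change of 0.18, and edgeR called 0 of them (0 at an unadjusted p under 0.05). *Hspa8*, the constitutive cytosolic Hsp70, had means of 1626 ± 354 (KO) and 1195 ± 373 CPM (WT), and the inducible *Hspa1a*, whose counts are uncertain because *Hspa1b* is a near-identical copy, 54.9 ± 17.1 and 88.5 ± 73.8 CPM (SD, n = 3 and 4). Both genes were picked with their values known. The list summed to 2058 to 3387 CPM in WT and 2921, 3508 and 2393 CPM in KO, so that KO replicate 2 and WT replicate 1 were its highest libraries. The difference between this list and the folding members was not tested.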
